A study of Mus musculus with 10 samples.

Results

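The 35 genes described here carry glucose into the cell, turn it into pyruvate and lactate, move lactate across the plasma membrane, and set how much pyruvate enters the mitochondrion. They were chosen by gene symbol. All 35 had a named feature on the array, 73 of their 75 features passed the filter on dim signals, and all 35 were tested, out of 20739 named genes on the array and 16651 tested genes. Slc16a7 is the only member whose level lay below the filter's percentile in any group, and it passed the filter through the MEF arrays.

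Transcript levels were measured in total RNA on 10 single-colour Agilent arrays. The cells were induced embryonic Sertoli-like cells (ieSCs) converted either out of female tail tip fibroblasts (TTFs, 4 arrays) or out of mouse embryonic fibroblasts (MEFs, 4 arrays), with unconverted MEFs on the remaining 2 arrays. All 3 groups came from a congenic strain homozygous for R26-M2rtTA, which makes the doxycycline-dependent activator in every cell. The transgenes of both ieSC groups were Nr5a1, Wt1, Dmrt1, Gata4 and Sox9, and RNA was taken once the cells had been off doxycycline for 2 weeks. The MEFs carried no such transgene and had also been cultured for 2 weeks, in the same F12/DMEM medium and at the same oxygen level according to the labels. No TTF array was analysed here, so TTF-derived ieSCs could be set only against MEFs, a fibroblast of another origin. Each ieSC group has names 1 and 2 with arrays a and b for each, and 4 values are given below in the order 1a, 1b, 2a, 2b. The 2 MEF arrays share a name, so there is no MEF culture under another name. The labels do not say whether names 1 and 2 are separate animals or clones, or whether arrays of a name are separate cultures. The spread behind each p-value is therefore that among these arrays and names and may be partly technical.

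Glycolysis splits glucose into pyruvate with a small yield of ATP, and lactate dehydrogenase turns the pyruvate into lactate while regenerating the NAD that the pathway needs. Lactate leaves or enters cells with a proton through monocarboxylate transporters, whereas pyruvate that enters the pyruvate dehydrogenase complex is oxidised. In the testis, Sertoli cells take up glucose, release lactate and so feed the developing germ cells, which use lactate in preference to glucose. Fibroblasts in culture are also glycolytic. Only transcript levels were measured here, and glucose use and lactate release were not tested.

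Values are log2 intensities as deposited, in which 1 unit is a 2-fold difference in intensity, and a difference is called when its limma p-value, adjusted over 16651 genes, is under 0.05. Differences carry their standard error (SE), and group levels their SD over 4 ieSC arrays or 2 MEF arrays. The MEF SD is the spread of arrays within a name. Arrays of a name correlated at 0.9896 to 0.9966 over all features, arrays of a group with other names at 0.9878 to 0.9896, and arrays of different groups at 0.926 to 0.9754. The Sertoli label was checked against 18 markers, of which 16 were tested. In TTF-derived ieSCs 9 were higher and 4 lower than in MEFs, and in MEF-derived ieSCs 7 were higher and 5 lower. For all tested genes the shares higher and lower were 23.3% and 21.9% in TTF-derived ieSCs. They were 27.2% and 24% in MEF-derived ieSCs. Wt1 was 5.57 ± 0.29 and 5.63 ± 0.29 above MEF in the TTF-derived and MEF-derived ieSCs, and Dhh was 7.73 ± 0.15 and 6.74 ± 0.15 above. Dhh read 5.59 and 5.34 in MEFs, near the 40th percentile of the arrays (4.988 to 5.023). The size of its differences therefore depends on the dim end of the scale. Amh and Fshr did not pass the filter. Wt1 is itself a transgene factor, and whether its feature read the transgene or the cells' own gene was not tested. Of the other transgene factors, Sox9, Gata4 and Nr5a1 were lower in both ieSC groups than in MEFs. Dmrt1 averaged 7.90 and 7.64, against 8.28 in MEFs. Of 13 fibroblast markers, 11 were lower and 1 higher in TTF-derived ieSCs, and 10 were lower and none higher in MEF-derived ieSCs. All 12 macrophage markers were lower in both ieSC groups, and the log2 of their summed intensity was 11.88 to 12.78 in TTF-derived ieSCs and 12.79 to 13.25 in MEF-derived ieSCs, against 16.65 to 16.70 in MEFs. Of these markers, 3 stayed within the filter's 40th percentile on every TTF-derived array, 4 on every MEF-derived array and 0 on both MEF arrays. For the fibroblast markers these counts were 3, 2 and 0. A marker this dim on every ieSC array passed the filter through the MEF arrays and could not be called higher. Itgam, the brightest macrophage marker in the ieSCs, averaged 11.62 and 12.41 there, against 14.50 in MEFs. The part of macrophage RNA in the MEF levels given below was not tested. In bulk RNA, fewer cells of a type and less RNA per cell cannot be told apart.

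Most steps between glucose and lactate had higher transcript levels in both kinds of ieSC than in MEFs. In TTF-derived ieSCs 19 of the 35 members were called higher (54.3%) and 7 lower (20%), against 23.3% of all tested genes called higher and 21.9% called lower. In MEF-derived ieSCs 18 members were higher (51.4%) and 8 lower (22.9%), against 27.2% and 24% of all tested genes. The median member difference was 0.81 in TTF-derived ieSCs, where the median of all genes was 0.06, and 0.66 in MEF-derived ieSCs, where it was 0.10. The share of members called lower was therefore near that of all genes, and the share called higher was above it. All TTF-derived arrays lay above both MEF arrays for 22 members and below both for 9, against 38.4% and 33.8% of all genes. For MEF-derived arrays these counts were 24 and 8, against 42% and 34.4% of all genes. Both comparisons use the same 2 MEF arrays, so their calls are not independent. Of the members, 16 were called higher and 6 lower in both, 6 were called in neither, 6 were called in 1 of them, and Slc16a3 was called in opposite directions. When the 2 arrays of each name were averaged before the limma fit, the TTF-derived calls of Ldha, Hk2, Eno2, Pdk4 and Pfkfb1 were lost (adjusted p of 0.0547 to 0.0953), as were the MEF-derived calls of Slc2a1, Pfkfb4 and Pgam2 (adjusted p of 0.081 to 0.151).

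**Figure D1:**
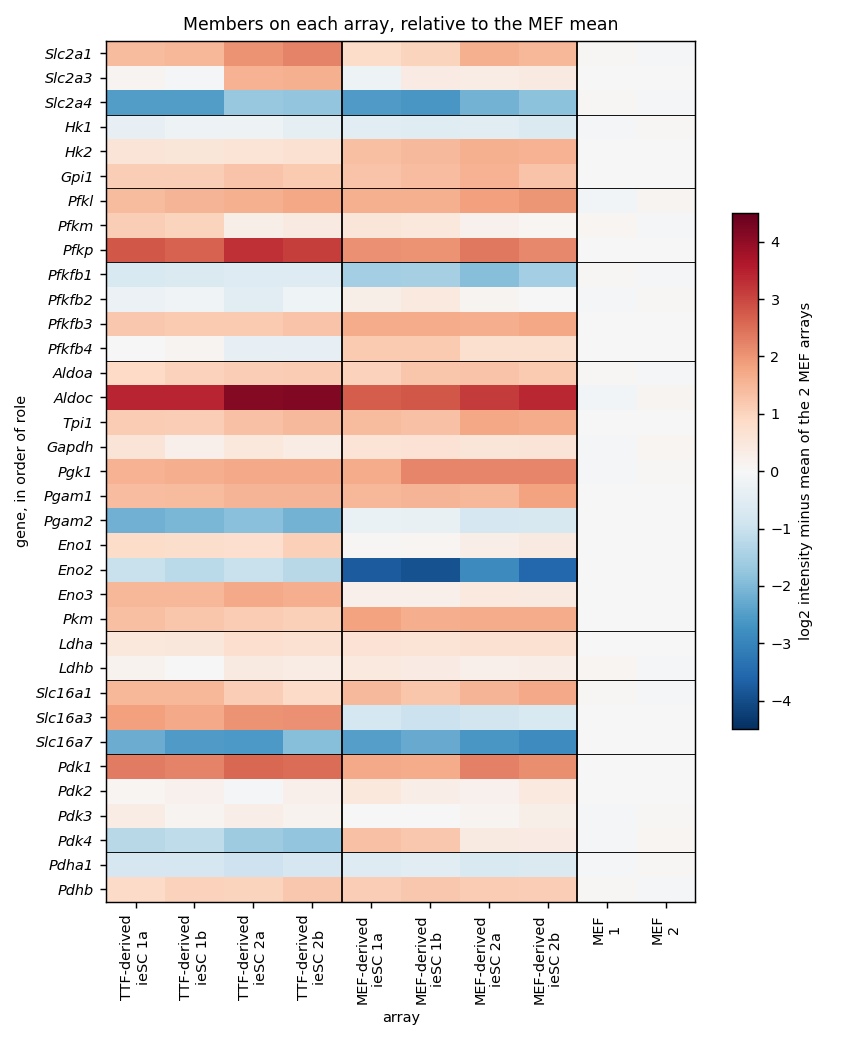
Log2 intensity of each of the 35 members (rows, in pathway order) on each of the 10 arrays (columns), after subtracting the member's mean over the 2 MEF arrays; the colour scale is in log2 units. Most rows are above 0 on all 8 ieSC arrays, with Aldoc, Pfkp and Pdk1 the strongest, while Slc2a4, Slc16a7 and Eno2 are below 0 on all of them.

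**Figure D2:**
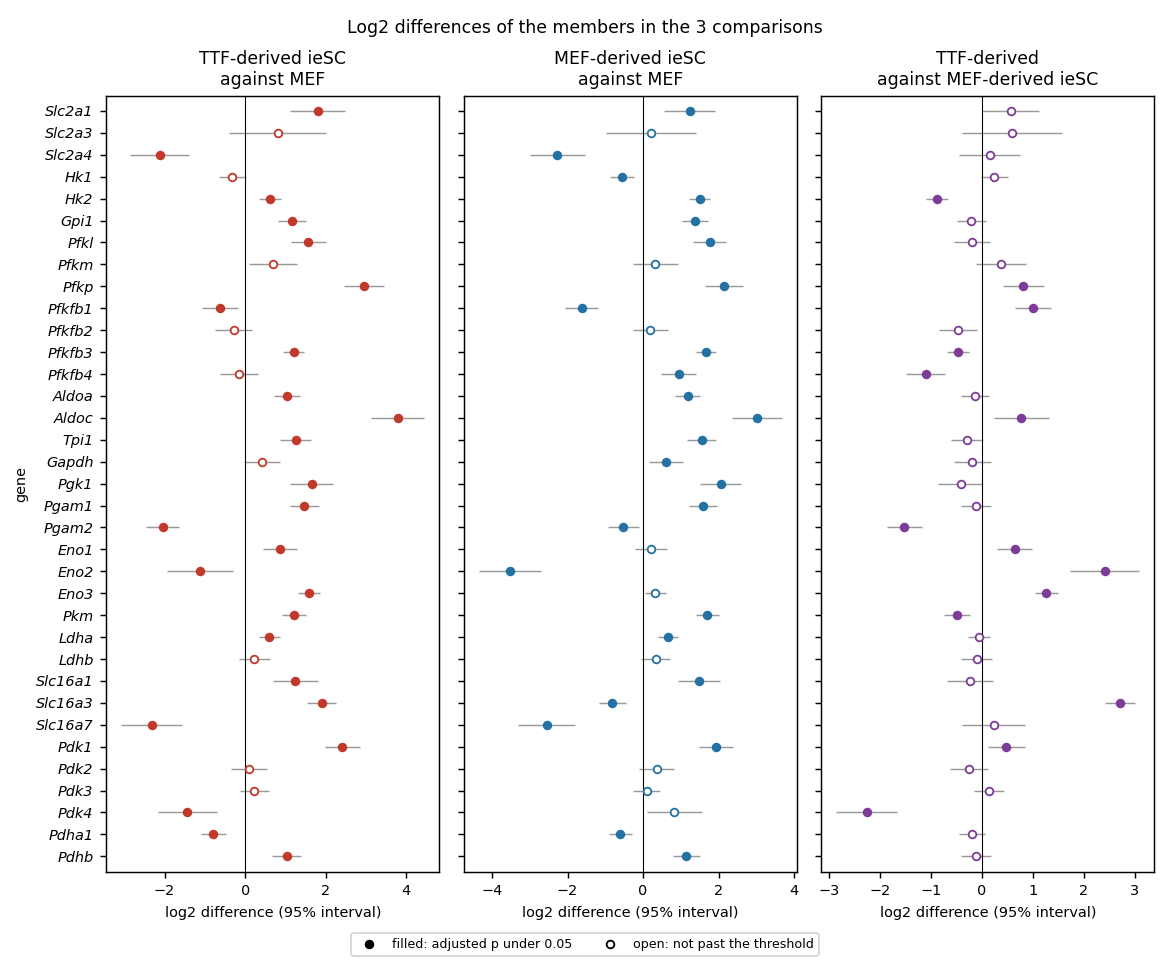
Log2 difference of each member (vertical axis) in the 3 comparisons, with 95% intervals from the limma fit; filled points have an adjusted p under 0.05. In the first and second panels most points lie right of 0, and in the third panel Slc16a3 and Eno2 lie farthest right and Pdk4 farthest left.

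The 4 members shown with their promoters are those called in the same direction in both ieSC groups with the smallest p-values, by a rule that took the larger p of each gene's 2 comparisons. They are Pfkfb3, Aldoc, Pdk1 and Pfkp, all higher in both. The windows are from RefSeq on build GRCm38.p6, and each runs from 250 bases before to 50 bases after an annotated gene start, 5′ to 3′ on the gene's strand. They lie at chr2:11553880-11554179 on the minus strand for Pfkfb3, chr11:78322823-78323122 on the plus strand for Aldoc, chr2:71872974-71873273 on the plus strand for Pdk1 and chr13:6648722-6649021 on the minus strand for Pfkp. Capitals mark ACGTG and GCGTG, the core letters bound by hypoxia-inducible factors, on either strand, so that a match on the other strand reads CACGT or CACGC.
Pfkfb3: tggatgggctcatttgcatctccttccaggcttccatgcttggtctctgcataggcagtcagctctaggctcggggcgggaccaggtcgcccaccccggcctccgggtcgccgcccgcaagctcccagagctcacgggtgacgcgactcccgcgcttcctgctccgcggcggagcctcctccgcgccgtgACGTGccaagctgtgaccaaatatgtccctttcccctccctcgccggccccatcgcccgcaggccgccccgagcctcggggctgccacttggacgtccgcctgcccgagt
Aldoc: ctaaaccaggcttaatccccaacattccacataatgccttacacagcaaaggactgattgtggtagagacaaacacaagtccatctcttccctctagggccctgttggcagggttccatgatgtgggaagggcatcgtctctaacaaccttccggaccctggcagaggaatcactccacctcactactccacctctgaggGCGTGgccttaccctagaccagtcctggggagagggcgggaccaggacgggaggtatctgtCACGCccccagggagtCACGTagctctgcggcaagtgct
Pdk1: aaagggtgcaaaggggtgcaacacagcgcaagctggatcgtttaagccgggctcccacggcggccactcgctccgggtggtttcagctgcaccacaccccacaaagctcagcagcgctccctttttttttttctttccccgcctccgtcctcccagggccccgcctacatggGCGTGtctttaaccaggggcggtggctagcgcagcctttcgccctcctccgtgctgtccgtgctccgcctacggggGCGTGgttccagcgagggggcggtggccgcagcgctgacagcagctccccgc
Pfkp: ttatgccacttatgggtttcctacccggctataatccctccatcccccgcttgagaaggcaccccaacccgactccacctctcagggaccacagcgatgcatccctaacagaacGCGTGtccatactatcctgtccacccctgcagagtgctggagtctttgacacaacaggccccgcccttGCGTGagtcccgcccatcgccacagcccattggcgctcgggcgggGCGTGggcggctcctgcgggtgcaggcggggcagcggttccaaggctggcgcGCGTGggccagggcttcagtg

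In the windows shown, the first listed for each gene, Pfkfb3 had 1 match to ACGTG, Aldoc had 1 to ACGTG and 2 to GCGTG, Pdk1 had 2 to GCGTG and Pfkp had 4 to GCGTG. Pfkfb3, Aldoc and Pdk1 each have 2 windows in the table. The windows not shown had 2 matches to ACGTG and 2 to GCGTG for Pfkfb3, 1 to GCGTG for Aldoc and none to either for Pdk1. Of the 35 members, 32 had at least 1 window in the table, 51 windows in all; Slc2a3, Slc2a4 and Slc16a7 had none. ACGTG was in 43.1% of the 51 member windows and in 19.6% of all 32851 windows of the same length, and GCGTG in 54.9% and 32.4%. At least 1 of the 2 cores was in 74.5% of member windows and 43.8% of all windows. The E-box CACGTG, which contains ACGTG, was in 11.8% and 7.15%, and the GC box GGGCGG in 49% and 35.7%. These shares describe letters in the windows only; windows of a gene can overlap, and the part of base composition was not tested. No binding was measured here.

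Among the glucose transporters, Slc2a1 rose and Slc2a4 fell in both ieSC groups. Slc2a1 encodes GLUT1, the basal transporter of most cells. Its levels were 14.73, 14.81, 15.34 and 15.53 in TTF-derived ieSCs and 14.14, 14.31, 14.89 and 14.81 in MEF-derived ieSCs, against 13.37 and 13.24 in MEFs. Every ieSC array lay above both MEF arrays, and name 2 lay above name 1 in both ieSC groups. The differences from MEF were 1.80 ± 0.30 (adjusted p = 0.00097) and 1.24 ± 0.30 (adjusted p = 0.00722). Slc2a4 encodes GLUT4, the insulin-responsive transporter of muscle and fat. It read 5.59, 5.58, 6.40 and 6.33 in TTF-derived ieSCs and 5.57, 5.48, 5.98 and 6.27 in MEF-derived ieSCs, against 8.14 and 8.06 in MEFs. It fell in both, with differences of -2.12 ± 0.32 and -2.28 ± 0.32. Its 10 kept features gave differences of -2.42 to -1.87 and -2.62 to -1.37. Its ieSC levels averaged the 51.9 and 50.4 percentiles of the arrays, so the size of the fall may depend on the dim end of the scale. Slc2a3 encodes GLUT3, a high-affinity transporter known from neurons and testis, and it was not called in any comparison. It read 10.02, 9.85, 11.49 and 11.49 in TTF-derived ieSCs and 9.66, 10.28, 10.24 and 10.31 in MEF-derived ieSCs, against 9.92 and 9.90 in MEFs. The TTF-derived value thus depended on the name: without the arrays of name 1 the difference from MEF was 1.58 (limma, adjusted p = 0.00338), against 0.81 ± 0.53 (adjusted p = 0.257) over both names.

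Glucose is trapped by hexokinases and then isomerised. Hk2, the inducible hexokinase of muscle and growing cells, rose by 0.61 ± 0.12 in TTF-derived and by 1.50 ± 0.12 in MEF-derived ieSCs. It read 11.77, 11.73, 11.79 and 11.88 in TTF-derived ieSCs and 12.54, 12.64, 12.77 and 12.76 in MEF-derived ieSCs, against 11.19 and 11.17 in MEFs. The 3 groups were fully separate, with MEF-derived ieSCs highest, TTF-derived ieSCs next and MEFs lowest. Gpi1, which converts glucose 6-phosphate to fructose 6-phosphate, rose by 1.17 ± 0.16 and 1.38 ± 0.16. Hk1, the widely expressed hexokinase, averaged 16.98 ± 0.09 and 16.74 ± 0.06, against 17.30 ± 0.08 in MEFs. Only the MEF-derived difference, -0.56 ± 0.14, was called (adjusted p = 0.00965). That direction held for the brightest of its 3 features alone: the other two gave 0.48 and 0.88 in MEF-derived ieSCs, and the mean of the 3 gave 0.27 (limma, adjusted p = 0.0563). In TTF-derived ieSCs the 3 features gave -0.32 to -0.11.

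Phosphofructokinase commits sugar to glycolysis. The liver (Pfkl) and platelet (Pfkp) forms of this enzyme rose, while the muscle form (Pfkm) was not called on its brightest feature. Pfkp read 12.33, 12.19, 12.85 and 12.66 in TTF-derived ieSCs and 11.61, 11.56, 11.91 and 11.71 in MEF-derived ieSCs, against 9.58 and 9.51 in MEFs. No group overlapped another, and the differences from MEF were 2.96 ± 0.22 (7.78-fold in intensity, adjusted p = 4.66e-06) and 2.15 ± 0.22 (4.44-fold, adjusted p = 3.31e-05). Pfkl rose by 1.57 ± 0.19 and 1.76 ± 0.19. Pfkm read 13.98, 13.87, 13.15 and 13.27 in TTF-derived ieSCs and 13.41, 13.35, 13.06 and 12.97 in MEF-derived ieSCs, against 12.95 and 12.80 in MEFs. Name 1 lay above name 2 in both ieSC groups. Without the TTF-derived arrays of name 2, the Pfkm difference from MEF was 1.05 (limma, adjusted p = 0.00302), against 0.69 ± 0.26 (adjusted p = 0.059) over both names. Its 10 kept features gave 0.65 to 0.84 in TTF-derived and 0.31 to 0.43 in MEF-derived ieSCs. The mean of these features was called in TTF-derived ieSCs (0.71, limma, adjusted p = 0.0241) and not in MEF-derived ieSCs.

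The Pfkfb genes encode the bifunctional enzymes that make and remove fructose 2,6-bisphosphate, the main activator of phosphofructokinase, and they did not move together. Pfkfb3, the form with the strongest kinase activity, read 12.94, 12.90, 12.90 and 13.03 in TTF-derived ieSCs and 13.40, 13.40, 13.37 and 13.47 in MEF-derived ieSCs, against 11.71 and 11.76 in MEFs. It rose by 1.21 ± 0.12 (adjusted p = 2.49e-05) and 1.68 ± 0.12 (adjusted p = 2.34e-06), with the 3 groups fully separate. Pfkfb4, the form known from testis, read 9.88, 10.02, 9.54 and 9.54 in TTF-derived ieSCs and 11.08, 11.06, 10.61 and 10.61 in MEF-derived ieSCs, against 9.87 and 9.92 in MEFs. The MEF-derived arrays alone stood above MEF, by 0.95 ± 0.21 (adjusted p = 0.00383), whereas the TTF-derived arrays spanned the MEF values and differed by -0.15 ± 0.21. Pfkfb1, the liver and muscle form, fell in both, with differences of -0.62 ± 0.20 and -1.62 ± 0.20. Its TTF-derived call (adjusted p = 0.0265) was lost without array 2a, without array 2b, or without MEF array 1 (adjusted p = 0.055, 0.0511 and 0.0673, limma). Pfkfb2, the heart form, was not called against MEF, with differences of -0.28 ± 0.20 and 0.19 ± 0.20.

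Most enzymes from aldolase to pyruvate kinase rose. Of these 11 genes, 8 were called higher and 2 lower in TTF-derived ieSCs, and 7 higher and 2 lower in MEF-derived ieSCs. The shares of all tested genes were 23.3% and 21.9% in TTF-derived ieSCs, and 27.2% and 24% in MEF-derived ieSCs. Aldoc, the brain aldolase, had the largest rise of any member in both comparisons. It read 14.74, 14.76, 15.44 and 15.47 in TTF-derived ieSCs and 14.05, 14.11, 14.46 and 14.69 in MEF-derived ieSCs, against 11.21 and 11.42 in MEFs. All 8 ieSC arrays lay far above MEF, with differences of 3.79 ± 0.29 (13.8-fold in intensity, adjusted p = 6.15e-06) and 3.01 ± 0.29 (8.07-fold, adjusted p = 2.39e-05). Aldoa, the ubiquitous and muscle form, rose by 1.04 ± 0.15 and 1.18 ± 0.15. Tpi1, which interconverts the triose phosphates, rose by 1.26 ± 0.17 and 1.55 ± 0.17. Pgk1, which makes the first ATP of the payoff phase, rose by 1.65 ± 0.24 and 2.06 ± 0.24, and Pgam1, the non-muscle phosphoglycerate mutase, by 1.47 ± 0.16 and 1.58 ± 0.16. Pkm encodes the pyruvate kinase of most tissues, and its splice forms were not told apart here. It read 17.45, 17.34, 17.25 and 17.17 in TTF-derived ieSCs and 17.90, 17.74, 17.77 and 17.76 in MEF-derived ieSCs, against 16.10 and 16.07 in MEFs. The groups were fully separate, and the differences from MEF were 1.21 ± 0.13 and 1.70 ± 0.13.

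Gapdh, which oxidises glyceraldehyde 3-phosphate and is often used as a reference gene, depended on the feature read. Its brightest feature differed from MEF by 0.41 ± 0.20 in TTF-derived ieSCs (adjusted p = 0.127) and by 0.60 ± 0.20 in MEF-derived ieSCs (adjusted p = 0.0306). The MEF-derived call was lost without MEF array 1 or MEF-derived array 2a or 2b (adjusted p of 0.0523 to 0.082, limma), and the TTF-derived difference was called without array 1b (0.49, adjusted p = 0.035). Of its 8 features, 2 had a MEF level above 17, from 17.66 to 17.79, and they gave 0.41 to 0.64 in TTF-derived and 0.60 to 0.66 in MEF-derived ieSCs. The other 6 features, with MEF levels of 13.74 to 16.87, gave 1.11 to 1.49 and 1.26 to 2.22. The highest value on any array was 19.02. The smaller differences thus stood at the brightest features, and whether the top of the intensity scale limited them was not tested. The mean of the 8 features gave 1.09 in TTF-derived ieSCs (limma, adjusted p = 2.18e-05). Across the members, 10 had a group mean above the 99th percentile of an array, which was 16.95.

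**Figure D3:**
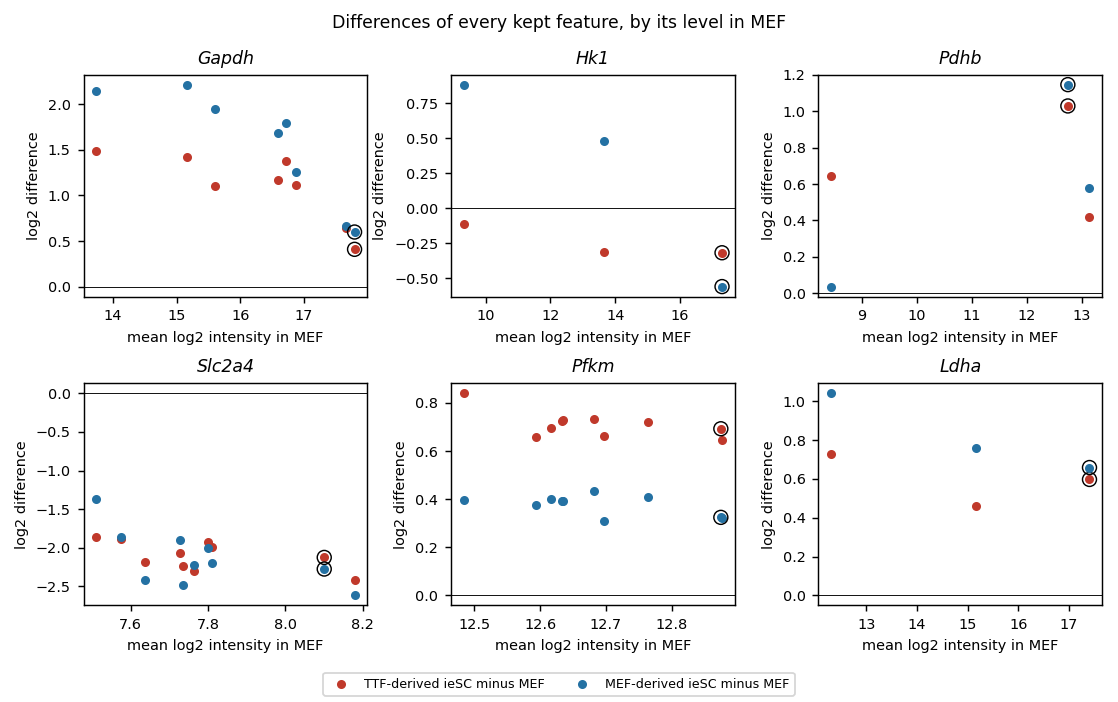
Log2 difference from MEF of every kept feature (vertical axes) against the feature's mean log2 intensity in MEFs (horizontal axes) for 6 members with several features; circles mark the feature that stands for the gene. For Gapdh the differences are smallest at the 2 brightest features, for Hk1 the MEF-derived differences lie on both sides of 0, and for Slc2a4 all differences are below 0.

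The enolases and the muscle mutase separated the 2 kinds of ieSC. Eno1, the ubiquitous enolase, read 17.39, 17.33, 17.30 and 17.62 in TTF-derived ieSCs and 16.62, 16.65, 16.86 and 16.96 in MEF-derived ieSCs, against 16.56 and 16.55 in MEFs. It rose in TTF-derived ieSCs by 0.86 ± 0.19 (adjusted p = 0.00445), and the MEF-derived difference was 0.22 ± 0.19 (adjusted p = 0.365). Eno3, the muscle enolase, read 13.02, 13.03, 13.25 and 13.18 in TTF-derived ieSCs and 11.75, 11.75, 11.98 and 11.95 in MEF-derived ieSCs, against 11.53 and 11.54 in MEFs. It rose in TTF-derived ieSCs by 1.58 ± 0.12 (adjusted p = 6.73e-06), and the MEF-derived difference was 0.32 ± 0.12 (adjusted p = 0.0558). Eno2, the neuronal enolase, read 9.99, 9.79, 10.01 and 9.78 in TTF-derived ieSCs and 7.26, 7.08, 8.13 and 7.46 in MEF-derived ieSCs, against 11.03 and 10.99 in MEFs. It fell in MEF-derived ieSCs, with a difference of -3.53 ± 0.37 (adjusted p = 3.66e-05). The TTF-derived arrays also lay below MEF, with a difference of -1.12 ± 0.37 (adjusted p = 0.0325), but that call was lost without TTF-derived array 1b or 2b or either MEF array (adjusted p of 0.0559 to 0.0683, limma). Pgam2, the muscle phosphoglycerate mutase, read 6.06, 6.18, 6.33 and 6.11 in TTF-derived ieSCs and 7.91, 7.89, 7.48 and 7.49 in MEF-derived ieSCs, against 8.22 on both MEF arrays. It fell in TTF-derived ieSCs, with a difference of -2.05 ± 0.18 (adjusted p = 1.61e-05). Its TTF-derived level averaged the 54 percentile of the arrays, so the size of that fall may depend on the dim end of the scale. The MEF-derived difference, -0.53 ± 0.18 (adjusted p = 0.0381), lost its call without either MEF array, without MEF-derived array 2a or 2b, or without TTF-derived array 1b (adjusted p of 0.0508 to 0.0738, limma).

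Members known as muscle forms can be set beside 12 skeletal muscle markers, of which 9 were tested. Of these, 1 was higher and 4 lower in TTF-derived ieSCs, and 1 was higher and 3 lower in MEF-derived ieSCs. The shares of all tested genes were 23.3% and 21.9% in TTF-derived ieSCs, and 27.2% and 24% in MEF-derived ieSCs. The log2 of the summed intensity of all 12 was 10.70 to 11.17 in TTF-derived ieSCs. It was 11.33 to 12.34 in MEF-derived ieSCs and 12.95 to 13.02 in MEFs. Ckm, Myh3 and Mylpf did not pass the filter. Des was -3.82 ± 0.74 and -2.29 ± 0.74 against MEF, and Acta1, a skeletal muscle actin, was -3.14 ± 0.42 and -0.96 ± 0.42, the MEF-derived value not called (adjusted p = 0.0846, limma). Actn3, a fast-fibre actinin, was the marker called higher, by 1.60 ± 0.14 and 2.31 ± 0.14. The part of muscle-lineage cells in the levels of Slc2a4 and Pgam2 was not tested. For Eno2, 8 neural markers gave 1 higher and 1 lower in TTF-derived ieSCs and 1 higher and 2 lower in MEF-derived ieSCs. The log2 of their summed intensity was 13.11 to 13.73 and 13.90 to 14.26, against 14.04 to 14.18 in MEFs. Snap25, a synaptic vesicle fusion protein, fell in both (-2.72 ± 0.27 and -1.98 ± 0.27), and Tubb3, a neuronal tubulin, rose by 1.03 ± 0.26 and 1.68 ± 0.26.

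Of the 2 lactate dehydrogenase subunits, Ldha was called in both ieSC groups and Ldhb in neither. Ldha, the subunit that favours making lactate, read 17.86, 17.92, 18.14 and 18.08 in TTF-derived ieSCs and 18.05, 18.02, 18.09 and 18.08 in MEF-derived ieSCs, against 17.41 and 17.39 in MEFs. Every ieSC array lay above both MEF arrays, with differences of 0.60 ± 0.12 (1.51-fold in intensity, adjusted p = 0.0022) and 0.66 ± 0.12 (1.58-fold, adjusted p = 0.00108). Its 3 features gave 0.46 to 0.73 and 0.66 to 1.04. Ldhb, the subunit of oxidative tissues such as heart, averaged 14.05 ± 0.19 and 14.15 ± 0.09, against 13.82 ± 0.10 in MEFs, and was not called (0.23 ± 0.17 and 0.33 ± 0.17). Of the 5 germ cell isozymes of the pathway, Ldhc, Pgk2 and Pdha2 did not pass the filter, and Gapdhs and Ldhal6b were not called in any comparison.

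Among the members, the largest difference between the 2 kinds of ieSC was in a monocarboxylate transporter. Slc16a3 encodes MCT4, the exporter of strongly glycolytic cells. It read 15.35, 15.22, 15.52 and 15.56 in TTF-derived ieSCs and 12.74, 12.56, 12.68 and 12.82 in MEF-derived ieSCs, against 13.48 and 13.55 in MEFs. All TTF-derived arrays lay above MEF and all MEF-derived arrays below it. It rose by 1.90 ± 0.16 in TTF-derived ieSCs (3.73-fold in intensity, adjusted p = 1.06e-05) and fell by 0.82 ± 0.16 on the log2 scale in MEF-derived ieSCs (adjusted p = 0.00217). Its 2 features gave 1.84 to 1.90 and -0.88 to -0.82. Slc16a1 encodes MCT1, which carries lactate either way. It read 8.81, 8.81, 8.42 and 8.15 in TTF-derived ieSCs and 8.74, 8.55, 8.84 and 8.99 in MEF-derived ieSCs, against 7.36 and 7.24 in MEFs. It rose in both, by 1.25 ± 0.25 (adjusted p = 0.00248) and 1.48 ± 0.25 (adjusted p = 0.000763). Slc16a7 encodes MCT2, a high-affinity form known for lactate uptake. It averaged 3.99 ± 0.30 and 3.76 ± 0.22, both below the 40th percentile of the arrays (4.988 to 5.023), against 6.31 ± 0.01 in MEFs. Its differences of -2.32 ± 0.34 and -2.55 ± 0.34 depend on the dim end of the scale, and were -1.30 in both groups when values were floored at that percentile. Bsg, the chaperone that carries MCT1 and MCT4 to the membrane, rose by 1.25 ± 0.19 and 1.40 ± 0.19, while Emb, the chaperone preferred by MCT2, fell to 5.06 and 5.43, just above that percentile, against 13.25 in MEFs. Among 13 tested relatives and chaperones of these transporters, 3 were higher and 4 lower in each ieSC group. The shares of all tested genes were 23.3% and 21.9% in TTF-derived ieSCs, and 27.2% and 24% in MEF-derived ieSCs. Slc16a9 and Slc16a10 were among the lower in both. Slc16a10 averaged 3.28 and 3.49 in the ieSCs, below the 40th percentile, against 6.99 in MEFs.

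At the gate to the mitochondrion, Pdk1 rose in both ieSC groups and Pdk4 fell in TTF-derived ieSCs. Pyruvate dehydrogenase kinases phosphorylate and switch off pyruvate dehydrogenase, which keeps pyruvate available for lactate. Pdk1 read 12.38, 12.29, 12.63 and 12.56 in TTF-derived ieSCs and 11.77, 11.72, 12.31 and 12.14 in MEF-derived ieSCs, against 10.06 and 10.04 in MEFs. Every ieSC array was above MEF, by 2.41 ± 0.20 (5.33-fold in intensity, adjusted p = 8.17e-06) and 1.94 ± 0.20 (3.83-fold, adjusted p = 3.05e-05). Pdk4, the kinase induced by fasting and lipid signals, read 7.83, 7.94, 7.47 and 7.31 in TTF-derived ieSCs and 10.40, 10.27, 9.47 and 9.46 in MEF-derived ieSCs, against 8.98 and 9.17 in MEFs. The TTF-derived arrays all lay below MEF and the MEF-derived arrays all above it. It fell by 1.43 ± 0.32 on the log2 scale in TTF-derived ieSCs (adjusted p = 0.00532), and the MEF-derived difference was 0.83 ± 0.32 (adjusted p = 0.058). Without the MEF-derived arrays of name 2 that difference was 1.26 (limma, adjusted p = 0.00424). Pdk2 and Pdk3, the other kinases, were not called, with differences from MEF of 0.09 to 0.36. The 2 subunits of the first enzyme of the complex went opposite ways. Pdha1, the alpha subunit that the kinases phosphorylate, fell in both (-0.79 ± 0.14 and -0.60 ± 0.14), and Pdhb, the beta subunit, rose by 1.03 ± 0.16 and 1.15 ± 0.16. The 3 Pdhb features gave 0.42 to 1.03 and 0.04 to 1.15.

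The 2 kinds of ieSC, which differ in the fibroblast they came from, were then compared with each other. In this comparison 8 of the 35 members were called higher in TTF-derived than in MEF-derived ieSCs (22.9%) and 6 lower (17.1%), against 16.7% and 19.3% of all tested genes. These shares were near those of all genes. The median member difference was -0.12, where the median of all genes was -0.05. All TTF-derived arrays lay above all MEF-derived arrays for 8 members and below them for 9, against 22.1% and 26.2% of all genes. Names 1 and 2 of an origin are the only repeats, so a difference between these cultures and a difference between the origins cannot be told apart.

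The 5 largest member differences between the origins were in Slc16a3, Eno2, Pdk4, Pgam2 and Eno3. Slc16a3 was 2.71 ± 0.13 higher in TTF-derived ieSCs (6.56-fold in intensity, adjusted p = 6.72e-07), Eno2 was 2.41 ± 0.30 higher (adjusted p = 0.000257) and Eno3 was 1.26 ± 0.10 higher (adjusted p = 1.86e-05). Pfkfb1 was 1.00 ± 0.16 higher (adjusted p = 0.00112), Pfkp 0.81 ± 0.18 higher (adjusted p = 0.00663) and Eno1 0.64 ± 0.15 higher (adjusted p = 0.00991). Lower in TTF-derived ieSCs were Pdk4, with a difference of -2.26 ± 0.26 (adjusted p = 0.000177), Pgam2 -1.52 ± 0.15 (adjusted p = 6.35e-05), Pfkfb4 -1.10 ± 0.17 (adjusted p = 0.000881) and Hk2 -0.89 ± 0.10 (adjusted p = 0.000121). Pkm and Pfkfb3 were lower by smaller amounts, -0.49 ± 0.11 and -0.47 ± 0.09. Aldoc and Pdk1 were called higher, by 0.77 ± 0.24 (adjusted p = 0.0316) and 0.48 ± 0.16 (adjusted p = 0.0427). Those calls were lost on leaving out TTF-derived array 2a or 2b or MEF-derived array 1a or 1b, and Pdk1 was also lost without TTF-derived 1a, MEF-derived 2b or either MEF array, and Aldoc without MEF-derived 2a (adjusted p of 0.0547 to 0.0793, limma). With the arrays of each name averaged, the calls of Pkm, Eno1, Aldoc, Pfkfb3, Pdk1, Pfkp and Pfkfb4 were lost (adjusted p of 0.0626 to 0.217, limma). Ldha differed by -0.06, with a 95% interval of -0.27 to 0.15, and Slc16a1 by -0.24, with an interval of -0.69 to 0.21. Slc2a1 differed by 0.56, with an unadjusted interval of 0.00399 to 1.12 and an adjusted p of 0.109.

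**Figure D4:**
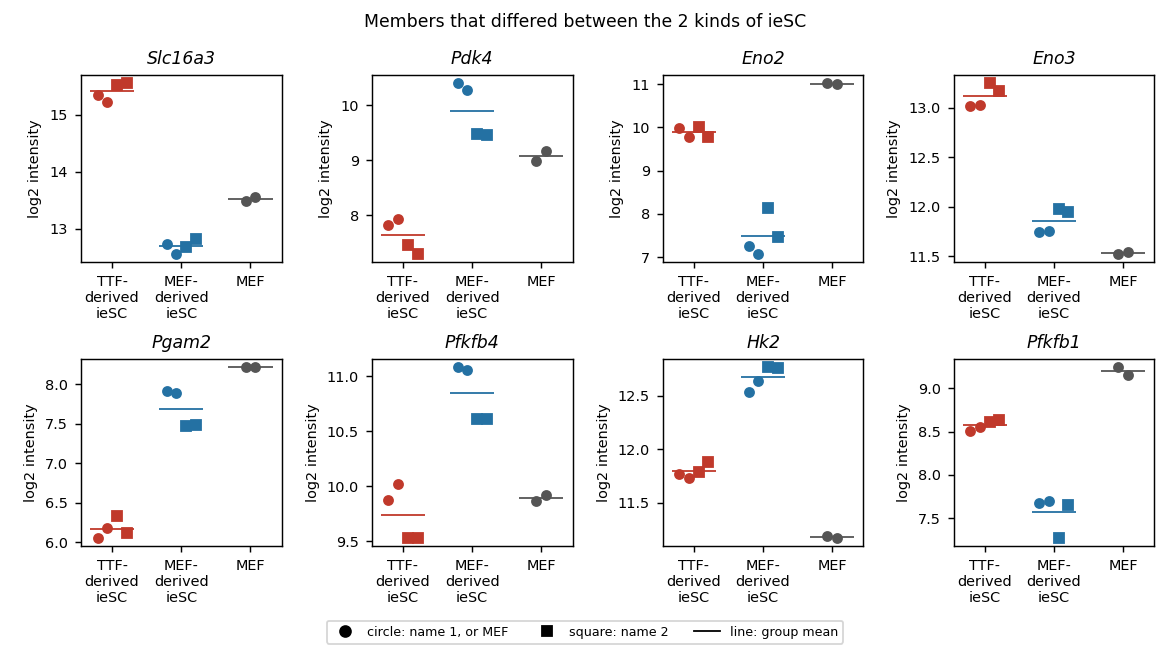
Log2 intensity on each array (vertical axes, scales differ by panel) for 8 members that differed between the 2 kinds of ieSC, with lines at the group means. Slc16a3 is above MEF in all TTF-derived arrays and below it in all MEF-derived arrays, Pdk4 shows the opposite, and Eno2 is lowest in MEF-derived arrays.

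Cell cycle transcripts differed between the 2 kinds of ieSC too. Of 12 tested cycling markers, 11 were higher in TTF-derived than in MEF-derived ieSCs and none was lower. The shares of all tested genes in that comparison were 16.7% and 19.3%. With the untested Aurkb included, the log2 of the summed marker intensity was 16.33 to 16.68 in TTF-derived ieSCs. It was 14.73 to 15.01 in MEF-derived ieSCs and 16.09 on both MEF arrays. The MEF-derived sum came mostly from Pcna and Rrm2, which averaged 14.04 and 13.11 there. Mki67, the proliferation antigen, averaged 13.87 and 6.49 in the 2 kinds of ieSC, a difference of 7.39 ± 0.26 (adjusted p = 1.00e-07). Against MEF, 5 cycling markers were higher and none lower in TTF-derived ieSCs, and 11 were lower and none higher in MEF-derived ieSCs. For all tested genes the shares higher and lower were 23.3% and 21.9% in TTF-derived ieSCs. They were 27.2% and 24% in MEF-derived ieSCs. Aurkb did not pass the filter. The part of proliferation in the differences of Slc16a3, the enolases and Hk2 was not tested. By muscle markers, 2 were higher and 2 lower in TTF-derived than in MEF-derived ieSCs.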

How the data were processed

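The series matrix deposited by the authors holds log2 array intensity for 62976 features on 10 arrays. Limma is named, per the submitters' processing notes, and its version is not stated there; background correction and normalization are not given in the sources used here. The log base was taken as 2 from the range of 0.288 to 19.02. Sorted columns differed by at most 0.0379 above the 40th percentile, as quantile-normalized columns do, so a change in total mRNA per cell cannot be seen. Detection flags were not used here.

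Platform annotation named 31465 features with 1 gene symbol, and 31511 had none. Symbols were updated through RefSeq accessions (29050 features matched). Outdated symbols without a match were updated through a synonym that belongs to 1 gene only, but not to name a member. By both routes 3281 symbols changed. Pkm is listed as Pkm2. Features above the 40th percentile of their array on at least 2 arrays were kept (42617), and each gene was read from its kept feature with the highest mean, giving 16651 genes. Of the members, 23 had 1 kept feature and 12 had more.

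The fit used R 4.3.3 with limma 3.58.1 and statmod 1.5.0, over all 10 arrays and 3 groups, with the 5 culture names as a random block (duplicateCorrelation, consensus correlation 0.606), 7 residual degrees of freedom and a prior of 2.21. Tests were two-sided and Benjamini-Hochberg adjusted over all genes. On simulated data with a known block correlation, the estimate lay below it and unchanged genes passed an unadjusted 0.05 somewhat more often than nominal; whether this holds for the real arrays was not tested. The number of arrays limits the precision.

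The members and 17 comparison lists (210 genes) were chosen with earlier results of these data known. All members are named or counted. From each list, genes were named among the 4 with the smallest p in a comparison. As an exception, named genes are given in both comparisons with MEF. Nr5a1, Gata4, Dmrt1, Itgam, Pcna, Rrm2 and genes below the filter were named after their values were seen. Alternatives covered the filter, the choice of feature, the block, scaling, a floor, the prior, array set, and leaving out each array or name; a block correlation of 0.7 was added after seeing the data.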

Additional observations from a re-analysis of the deposited data

Results flagged for a closer look

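In 5 of 70 sets of 4 arrays a single array stood apart from the other 3 of its group; chance marks about 5% of such sets. Slc2a3 read 9.66 on MEF-derived array 1a, where the other MEF-derived arrays read 10.24 to 10.31. Pfkfb1 read 7.28 on MEF-derived array 2a, where the others read 7.65 to 7.70. Pgk1 read 17.38 on MEF-derived array 1a, where the others read 17.89 to 17.90, and without that array it was called lower in TTF-derived than in MEF-derived ieSCs (-0.54, limma, adjusted p = 0.00265). Pgam1 read 18.24 on MEF-derived array 2b, where the others read 17.93 to 17.97. Pdha1 read 12.26 on TTF-derived array 2a, where the others read 12.41 to 12.43.

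Among the 14 members called between the origins, 3 had mean differences from MEF of opposite sign in ieSCs of the 2 origins. The difference between the origins, tested with limma, was 2.71 for Slc16a3 (adjusted p = 6.72e-07), -2.26 for Pdk4 (adjusted p = 0.000177) and -1.10 for Pfkfb4 (adjusted p = 0.000881), each TTF-derived minus MEF-derived.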

How the results depend on the processing

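Over 26 alternatives for each comparison with MEF and 27 for the comparison of the origins, 21 of 26, 21 of 26 and 7 of 14 member calls were kept under every alternative that tested the gene (Slc16a7 was not tested with the filter at the 60th percentile). With the arrays of each name averaged, 4 members were lower in TTF-derived ieSCs against MEF (7 with all arrays), and 4 were higher and 3 lower between the origins (8 and 6); that setting called 4764 genes in place of 7513 for TTF-derived ieSCs against MEF and 2421 in place of 5998 between the origins. With the 10 arrays taken as independent, 11 members were lower between the origins, and 8516 genes were called in place of 5998. Another fit used the 8 ieSC arrays alone, with the shared name numbers 1 and 2 as a fixed effect. It had no random block, so it also took arrays of a name as independent. It gave 13 members lower between the origins, and 9441 genes in place of 5998. The deviations of name 2 from name 1 correlated at 0.297 between the origins over 16651 genes, but there are only 2 such names and nothing in the labels ties them. Reading each gene as the mean of its features turned Hk1 to 0.27 in MEF-derived ieSCs against MEF and to -0.52 between the origins (adjusted p = 0.0563 and 0.00139, limma); the features differ, and the cause was not tested. Leaving out each array in turn gave 19 to 20 higher and 5 to 7 lower members for TTF-derived ieSCs against MEF, 17 to 18 and 7 to 8 for MEF-derived ieSCs, and 6 to 8 and 6 to 7 between the origins. Leaving out a name gave 19 to 22 and 6 to 7, 18 to 20 and 7 to 8, and 6 to 10 and 6 to 8. A block correlation of 0.7, chosen after seeing the data, gave 19 and 5, 17 and 7, and 7 and 6. The median member difference stayed between 0.73 and 0.91, 0.57 and 0.82, and -0.19 and -0.04. Centring on a median or a percentile and repeating the quantile normalization changed no member call. Only 2 MEF arrays, which share a name, and 2 names per origin limit every comparison, and detection and saturation flags were not used here.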

Other observations

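Genes on routes next to glycolysis were counted by lists chosen with earlier results of these data known. For all tested genes, the shares called higher and lower than in MEFs were 23.3% and 21.9% in TTF-derived ieSCs. In MEF-derived ieSCs these shares were 27.2% and 24%. Of 9 genes that carry cytosolic NADH to the mitochondrion, 6 were higher and none lower in TTF-derived ieSCs than in MEFs, and 6 were higher and 1 lower in MEF-derived ieSCs. Gpd1, the cytosolic glycerol phosphate dehydrogenase, rose by 2.50 ± 0.24 and 3.02 ± 0.24, and Got1, the cytosolic aspartate aminotransferase, by 1.33 ± 0.13 and 1.32 ± 0.13. Of 7 pentose phosphate genes, 4 were higher and 1 lower in TTF-derived, and 4 higher and none lower in MEF-derived ieSCs, with Taldo1, the transaldolase, higher by 0.86 ± 0.21 and 1.61 ± 0.21. Of 16 genes of the citric acid cycle, 1 was higher and 3 lower, and 2 higher and 3 lower, with Fh1, the fumarase, lower in both (-0.57 ± 0.11 and -0.37 ± 0.11). Of 11 genes on other routes of pyruvate, 3 were higher and 3 lower, and 5 higher and 1 lower: Mpc1, a subunit of the mitochondrial pyruvate carrier, rose by 0.80 ± 0.13 and 1.20 ± 0.13, and Pdp1, a phosphatase that reactivates pyruvate dehydrogenase, fell in both (-1.53 ± 0.15 and -2.26 ± 0.15).

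Storage and other sugar routes, to be read against the same shares of all tested genes, went both ways. Of 12 glycogen genes, 3 were higher and 5 lower in TTF-derived, and 4 higher and 4 lower in MEF-derived ieSCs. Gbe1, the branching enzyme, rose by 2.44 ± 0.35 and 3.36 ± 0.35, while the phosphorylases Pygl and Pygb fell, with differences of -1.94 ± 0.12 and -2.23 ± 0.12 for Pygb. Pygl averaged 4.26 and 4.44 in the ieSCs, against 11.15 in MEFs; its ieSC levels, like those of Slc2a10, Hk3 and Prkaa2 given next, were below the 40th percentile of the arrays (4.988 to 5.023) or at it, so no size is given for these falls. Of 17 other genes of sugar entry and gluconeogenesis, 3 were higher and 5 lower, and 6 higher and 4 lower, with the transporters Slc2a10 and Slc2a13 lower in both; Slc2a10 averaged 3.98 and 4.32, against 10.63 in MEFs. Hk3, a hexokinase of blood cells, fell in both, to 4.96 and 4.99, against 8.57 in MEFs, beside the lower macrophage markers. Of 18 regulators, 8 were higher and 4 lower, and 6 higher and 5 lower. Egln3 and Egln1, oxygen-sensing hydroxylases, rose, Egln3 by 5.52 ± 0.37 and 5.70 ± 0.37 and Egln1 by 1.67 ± 0.15 and 2.15 ± 0.15. Epas1, which encodes a hypoxia-inducible factor, rose by 1.34 ± 0.13 and 2.30 ± 0.13, and Prkaa2, a catalytic subunit of AMP-activated kinase, fell in both, to 4.81 and 4.95, against 9.02 in MEFs. Of 6 tested adipocyte markers, 1 was higher and 2 lower in TTF-derived, and none higher and 2 lower in MEF-derived ieSCs. Of 6 tested germ cell markers, none was higher and 1 lower, and none higher and 2 lower.

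Between the origins, 16.7% of all tested genes were called higher in TTF-derived ieSCs and 19.3% lower. Idh2, the mitochondrial NADP-dependent isocitrate dehydrogenase, was 1.37 ± 0.17 higher in TTF-derived than in MEF-derived ieSCs, and Mycn, a proto-oncogene transcription factor, was 3.45 ± 0.45 higher. Dlat, a subunit of the pyruvate dehydrogenase complex, was lower in TTF-derived ieSCs, with a difference of -1.06 ± 0.13, as was Gys1, the glycogen synthase of muscle and other tissues, at -0.88 ± 0.11. The number called higher and lower was 1 and 6 of 17 for sugar entry, 1 and 5 of 11 for pyruvate, 0 and 2 of 13 for transporters, 2 and 4 of 7 for the pentose phosphate route, 2 and 4 of 12 for glycogen, 2 and 2 of 16 for the citric acid cycle, 1 and 1 of 9 for NADH transfer and 3 and 4 of 18 for regulators. For markers it was 3 and 3 of 16 for Sertoli cells, 2 and 2 of 13 for fibroblasts, 0 and 2 of 12 for macrophages, 1 and 1 of 6 for adipocytes, 0 and 2 of 8 for neural cells and 1 and 1 of 6 for germ cells.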
